A study of Mus musculus with 23 samples.

Results

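Egr1, Egr2, Nr4a1 and Nr4a2 are transcription factor genes of the immediate early class, and their messenger RNA was measured in the nucleus accumbens of mice from lines bred for a high or a low acute response to methamphetamine. All probe sets that the platform annotation maps to these 4 genes were taken, which gave 6 of the 12488 probe sets on the array and 4 of the 8251 genes tested. Each array carried biotin-labelled cRNA from 1 pool of accumbens tissue. The 23 pools were 6 of HMACT given methamphetamine, 6 of HMACT given saline, 5 of LMACT given methamphetamine and 6 of LMACT given saline. Mean ages of the pools were 77.25 to 150 days in HMACT given methamphetamine, 77.25 to 154 days in HMACT given saline, 60 to 114.75 days in LMACT given methamphetamine and 61.5 to 127.5 days in LMACT given saline. HMACT (high response) and LMACT (low response) are selected lines whose founders descend from C57BL/6J and DBA/2J mice, so every group shares that origin, with 1 high and 1 low line. Methamphetamine was given as 1 challenge injection of 2 mg/kg, saline stands at 0 mg/kg, and tissue was taken 1 hour after either injection. The labels describe 4-way pools and do not say how animals were divided, so a p-value reflects only how much the pools of a group varied.

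Immediate early genes are transcribed within minutes of strong synaptic or growth factor input, without new protein synthesis, through kinase cascades that act on factors already bound to their promoters. Egr1 and Egr2 encode zinc finger proteins that bind GC-rich DNA, and Egr1 is used widely as a marker of neuronal activity. Nr4a1 (Nur77) and Nr4a2 (Nurr1) encode orphan nuclear receptors that need no known ligand; Nr4a1 is inducible in striatal projection neurons, and Nr4a2 is required for midbrain dopamine neurons. Methamphetamine releases dopamine, and the accumbens is a main target of midbrain dopamine axons.

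The 250 bases before the RefSeq start (GRCm38.p6) are shown for Egr2 and Nr4a1, the members with the larger differences after methamphetamine, and for Nr4a2, whose differences were small. Capitals mark TGACG on either strand (CGTCA when read on the other), the short core of the site bound by CREB family factors, and in Egr2 also the CArG box bound by serum response factor.
Egr2, chr10:67537619-67537868, plus strand: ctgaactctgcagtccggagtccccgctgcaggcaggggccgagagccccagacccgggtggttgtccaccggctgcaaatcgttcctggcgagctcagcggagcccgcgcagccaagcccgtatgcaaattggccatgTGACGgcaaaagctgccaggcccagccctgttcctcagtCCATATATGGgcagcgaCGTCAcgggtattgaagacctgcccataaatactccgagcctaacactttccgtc
Nr4a1, chr15:101266596-101266845, plus strand: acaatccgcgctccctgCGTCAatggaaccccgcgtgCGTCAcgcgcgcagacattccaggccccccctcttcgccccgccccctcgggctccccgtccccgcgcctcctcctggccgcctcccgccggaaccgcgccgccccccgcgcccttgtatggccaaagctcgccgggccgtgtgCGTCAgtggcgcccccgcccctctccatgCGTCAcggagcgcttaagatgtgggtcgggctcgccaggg
Nr4a2, chr2:57124004-57124253, minus strand: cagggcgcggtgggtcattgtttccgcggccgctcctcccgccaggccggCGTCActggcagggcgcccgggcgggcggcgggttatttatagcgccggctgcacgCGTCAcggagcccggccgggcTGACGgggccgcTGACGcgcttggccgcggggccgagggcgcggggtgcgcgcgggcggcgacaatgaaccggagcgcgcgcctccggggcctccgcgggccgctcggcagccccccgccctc
RefSeq lists 5 start windows for Egr2, and the one shown is the first of 3 that overlap. The Egr2 window held TGACG 2 times, with first bases 111 and 55 bases before the start, and 1 CArG box at 72 bases. The Nr4a1 window held TGACG 4 times, at 233, 213, 69 and 40 bases before the start. The Nr4a2 window also held it 4 times, at 200, 144, 123 and 111 bases. Among 32851 RefSeq promoter windows of this length, 17.8% held TGACG at least once, 3.90% at least 2 times and 0.137% at least 4 times, and 1.47% held a CArG box. The full palindrome TGACGTCA (in 1.55% of windows) was in none of the 3 windows, and its matches also count as TGACG. The Egr site GCGNGGGCG (in 4.70% of windows) was found once in the Nr4a1 window, at 60 bases, and once in the Nr4a2 window, at 74 bases. The Nr4a monomer site AAAGGTCA (in 1.34% of windows) was in none of the 3. The windows shown had a G and C content of 61.6% for Egr2, 74.4% for Nr4a1 and 80% for Nr4a2. Shares of motifs among windows of like content were not computed. All motifs were read on both strands, and a match describes letters, not a bound site.

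Each member's level is a deposited log2 value, on a scale inferred from the values, which run from 2.23 to 16.4; values under 2.3 were taken as the floor of the arrays. The platform annotation lists 2 probe sets for Egr1, 1 for Egr2, 1 for Nr4a1 and 2 for Nr4a2. Egr1 was read from 98579_at, Egr2 from 102661_at, Nr4a1 from 102371_at and Nr4a2 from 92248_at, which for Egr1 and Nr4a2 is the probe set with the higher mean. The second Egr1 probe set, 161802_i_at, lay at the floor on 22 of 23 arrays and reached 2.59 on the other. The second Nr4a2 probe set, 92249_g_at, lay between 2.69 and 3.35, and within 0.03 of 2.90 on 21 of 23 arrays. Both second probe sets therefore carried little beyond a constant, and the tests below rest on 1 probe set a gene. The 4 probe sets used were above the floor on all 23 arrays.

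4 arrays stood apart from the rest along the first principal component of the within-group residuals, which held 62.1% of their variance over 5308 genes: HMACT methamphetamine replicate 3, HMACT saline replicates 3 and 5, and LMACT methamphetamine replicate 4. HMACT saline replicate 3 also had the lowest mean 3′ minus 5′ difference of the control probe sets, 1.07, and the highest summed red blood cell markers, a log2 level of 11.3. Those markers (2 of 3 on the array, neither at the floor throughout) ran from 7.83 to 9.18 in HMACT methamphetamine pools, 7.25 to 11.3 in HMACT saline pools, 7.04 to 8.52 in LMACT methamphetamine pools and 7.0 to 8.98 in LMACT saline pools. Microglial markers (8 of 8 on the array, Cx3cr1 and Aif1 at the floor on every array) summed to a log2 level of 11.8 on that array and to at most 11.1 on each of the other arrays. Markers of cortical and claustral glutamatergic neurons (5 of 7 on the array, none at the floor throughout) summed to a log2 level of 8.51 on that array, the lowest of all. They ran from 8.99 to 9.50 in HMACT methamphetamine pools, 8.51 to 10.2 in HMACT saline pools, 9.07 to 10.4 in LMACT methamphetamine pools and 9.09 to 9.55 in LMACT saline pools. LMACT methamphetamine replicate 5, which did not stand apart, had the highest 3′ minus 5′ difference, 4.57, with all other arrays at 2.80 or less, and the highest cortical sum. Striatal projection neuron markers (5 of 9 on the array, Rgs9 at the floor on every array) summed to log2 levels of 13.6 to 14.7 on all arrays. The lowest, 13.6, was HMACT saline replicate 1, with every other array at 14.1 or more. HMACT pools were older, with replicates 1 to 3 at mean ages of 141.5 to 154 days and replicates 4 to 6 at 77.25 to 88 days. LMACT pools were 60 to 72.75 days old apart from replicate 6, at 114.75 days after methamphetamine and 127.5 days after saline.

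The first comparison asked what acute methamphetamine did to these genes 1 hour later. Among the 4 members Egr2 had the largest difference: it was 1.75-fold higher after methamphetamine in HMACT, with no overlap between the groups, and 1.23-fold higher in LMACT. Nr4a1 was 1.51-fold higher after methamphetamine in LMACT, again with no overlap, and 1.04-fold higher in HMACT. Egr1 was 1.40-fold higher after methamphetamine in LMACT, where the groups overlapped and the 95% interval of the log2 difference was 0.04 to 0.93. The intervals of Egr2 in LMACT, of Nr4a1 and Egr1 in HMACT and of Nr4a2 in both lines spanned 0. None of the 4 passed an adjusted p of 0.05 over all genes in limma, where 0.0242% of genes did so for the mean of both lines: Btg2, an antiproliferative early gene, rose and Hspa1b, a heat shock protein gene, fell. Tissue pools were measured, so fewer cells of a type and less RNA per cell cannot be told apart.

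**Figure D1:**
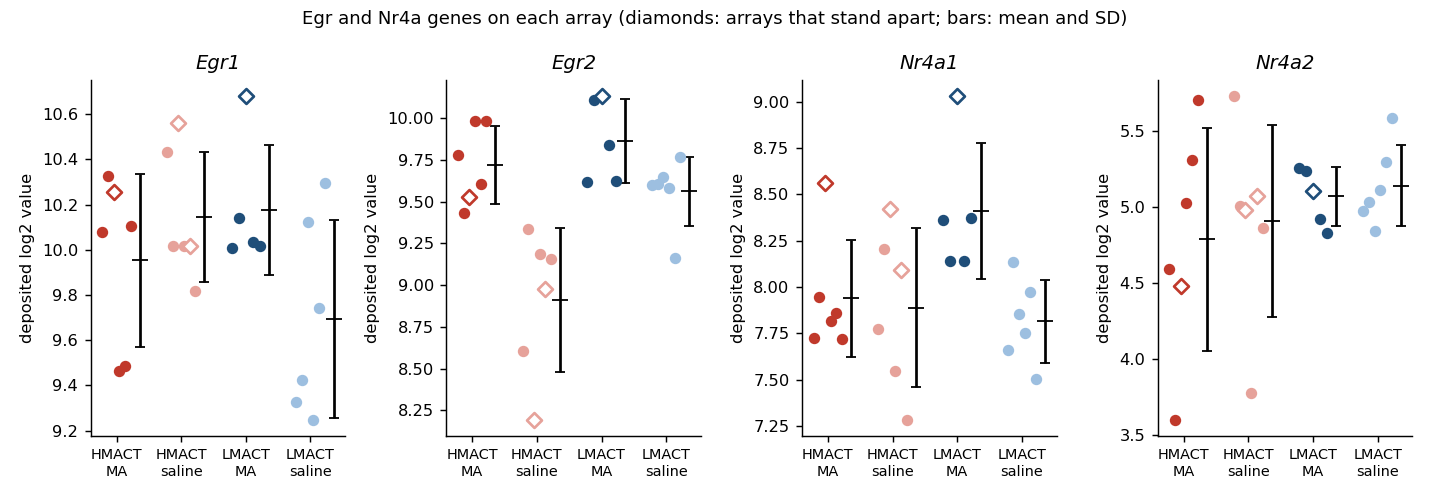
Deposited log2 values of each gene (vertical axis) on every array, by group, with the mean and SD as black bars and the 4 arrays that stand apart as open diamonds. Egr2 after methamphetamine in HMACT lies between 9.43 and 9.98, above all HMACT saline pools, which lie between 8.19 and 9.33.

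Egr2 encodes a factor that also drives myelination in peripheral Schwann cells. In HMACT methamphetamine pools its log2 values ran from 9.43 to 9.98 with a median of 9.69, against 8.19 to 9.33 with a median of 9.07 in HMACT saline pools. Every methamphetamine pool of the high line lay above every saline pool of that line. The group means were 9.72 ± 0.23 (SD, n = 6) after methamphetamine and 8.91 ± 0.43 (SD, n = 6) after saline. The HMACT difference on the log2 scale was 0.81 (SE 0.169, 95% interval 0.46 to 1.16), with an unadjusted p of 0.000121 and an adjusted p of 0.250 in limma. This p was the 4th smallest of 8251 genes, of which 0.0121% passed in HMACT. Of all genes, 0.0606% were higher in HMACT methamphetamine pools without overlap, which is 5 genes, Egr2 among them.

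In LMACT methamphetamine pools Egr2 had log2 values of 9.62, 10.11, 10.13, 9.84 and 9.62, against 9.16 to 9.77 with a median of 9.60 in LMACT saline pools. The groups overlapped, but each of the 5 methamphetamine pools lay above the saline mean. The means were 9.86 ± 0.25 (SD, n = 5) after methamphetamine and 9.56 ± 0.21 (SD, n = 6) after saline. The log2 difference was 0.30 (SE 0.177, 95% interval -0.07 to 0.67; adjusted p = 1 in limma). Over both lines the log2 difference of Egr2 was 0.56 (SE 0.122, 95% interval 0.30 to 0.81), a 1.47-fold higher level, and 11 of 11 methamphetamine pools lay above their own line's saline mean. Its adjusted p in limma was 0.237 and its unadjusted p of 0.000212 was the 7th smallest.

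HMACT saline replicate 3, the pool with the high red blood cell markers, had the lowest Egr2 value of all 23 arrays. It lay 0.88 log2 units below the mean of the HMACT saline pools that did not stand apart. Without that pool the HMACT difference was 0.67, and without all 4 arrays that stand apart it was 0.68, with an adjusted p of 0.850 in limma. The cortical marker sum of replicate 3 was the lowest of all arrays. HMACT saline replicate 2, with the highest Egr2 of that group, 9.33, had the highest cortical sum among HMACT pools, 10.2. The other HMACT saline pools did not follow that order. Cortical sum and Egr2 were 9.75 and 8.98 in replicate 5, and 9.60 and 8.61 in replicate 1. They were 9.01 and 9.16 in replicate 6, and 8.86 and 9.19 in replicate 4. Replicate 1, with its Egr2 value of 8.61, also had the lowest striatal projection neuron sum of all arrays. The part of red blood cell, microglial, cortical or striatal neuron RNA in the Egr2 result was not tested. Chip lots are named in the labels, and the HMACT difference was 0.86 among the 15 arrays of the largest lot. The other lots held 4 arrays each, 1 a group (1 array with a differing lot number counted with the last). Their values of 0.79 and 0.63 are thus 1 pool minus 1 pool, in the same direction but without replicates. In LMACT the same lots gave 0.31, 0.01 and 0.55.

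Nr4a1 is the orphan receptor gene inducible in striatal neurons. In LMACT methamphetamine pools its log2 values were 8.36, 8.14, 9.03, 8.14 and 8.37, against 7.50 to 8.14 with a median of 7.80 in LMACT saline pools. All 5 methamphetamine pools lay above all 6 saline pools, though the gap at the edge was narrow: the lowest methamphetamine pool had 8.138 and the highest saline pool 8.135. The means were 8.41 ± 0.37 (SD, n = 5) after methamphetamine and 7.81 ± 0.23 (SD, n = 6) after saline. This gave a log2 difference of 0.59 (SE 0.204, 95% interval 0.17 to 1.02), with an unadjusted p of 0.0089 and an adjusted p of 1 in limma. In LMACT 0.436% of genes were higher after methamphetamine without overlap, and 0% passed the adjusted threshold in limma, while 187 were higher and 88 lower at an unadjusted p under 0.05.

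In HMACT methamphetamine pools Nr4a1 ran from 7.72 to 8.56 with a median of 7.84, against 7.28 to 8.42 with a median of 7.93 in HMACT saline pools. The groups overlapped through most of their range, and 2 of 6 methamphetamine pools lay above the saline mean. The log2 difference was 0.05 (SE 0.195, 95% interval -0.36 to 0.46; adjusted p = 1 in limma). Over both lines it was 0.32 (SE 0.141, 95% interval 0.03 to 0.62), with an unadjusted p of 0.0337 and an adjusted p of 1 in limma.

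Nr4a1 was high on the arrays that stand apart. HMACT methamphetamine replicate 3 lay 0.75 log2 units above the other methamphetamine pools of its line, and LMACT methamphetamine replicate 4 lay 0.78 above the others of its group. HMACT saline replicates 3 and 5 lay 0.72 and 0.39 above the HMACT saline pools that did not stand apart. Endothelial markers (6 of 6 on the array) summed to log2 levels of 8.21 in LMACT methamphetamine replicate 4 and 8.17 in HMACT methamphetamine replicate 3. They summed to 7.59 and 7.42 in HMACT saline replicates 3 and 5, and to at most 7.75 on arrays that did not stand apart. The part of endothelial RNA in the Nr4a1 values was not tested. Without the 4 arrays the LMACT difference of Nr4a1 was 0.44 and the HMACT difference 0.11. Without LMACT methamphetamine replicate 5, the pool with the high 3′ minus 5′ difference, the LMACT differences were 0.66 for Nr4a1 and 0.52 for Egr1. Within the 3 chip lots the LMACT difference was 0.47, 0.22 and 1.28, and the HMACT difference was 0.07, 0.27 and -0.23. Only the first value of each set rests on more than a single array in each group. The value of 1.28 is LMACT methamphetamine replicate 4, which stands apart, minus a single saline array.

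Egr1 had log2 values from 9.46 to 10.33 with a median of 10.09 in HMACT methamphetamine pools, against 9.82 to 10.56 with a median of 10.02 in HMACT saline pools. The groups overlapped, and the log2 difference was -0.19 (SE 0.204, 95% interval -0.62 to 0.24; adjusted p = 1 in limma). In LMACT methamphetamine pools Egr1 was 10.01, 10.14, 10.68, 10.03 and 10.02, against 9.25 to 10.30 with a median of 9.58 in LMACT saline pools. All 5 methamphetamine pools lay above the LMACT saline mean, and 4 of them lay inside the saline range. The LMACT log2 difference was 0.48 (SE 0.214, 95% interval 0.04 to 0.93), with an unadjusted p of 0.0359 and an adjusted p of 1 in limma. Over both lines the log2 difference of Egr1 was 0.15 (SE 0.148, 95% interval -0.16 to 0.45).

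The Egr1 value of 10.02 was identical, to every deposited digit, on 4 arrays: HMACT saline replicates 2, 4 and 5 and LMACT methamphetamine replicate 6. Among 5091 genes above the floor on all arrays, 27.4% had some value repeated on 4 or more arrays. That share includes dim genes, and the share among genes as bright as Egr1 was not computed. No value of Egr2, Nr4a1 or the first Nr4a2 probe set was repeated.

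Nr4a2 gave no difference of either sign that exceeded the spread of the pools. Its log2 values in HMACT methamphetamine pools ran from 3.60 to 5.71 with a median of 4.81, against 3.78 to 5.73 with a median of 4.99 in HMACT saline pools. In LMACT methamphetamine pools they were 5.26, 5.24, 5.11, 4.92 and 4.83, against 4.84 to 5.58 with a median of 5.08 in LMACT saline pools. The SD was 0.74 and 0.63 in the HMACT methamphetamine and saline groups (n = 6 each), and 0.19 and 0.26 in the LMACT methamphetamine (n = 5) and saline (n = 6) groups. The log2 difference was -0.12 (SE 0.299, 95% interval -0.74 to 0.51) in HMACT and -0.07 (SE 0.313) in LMACT (95% interval -0.73 to 0.58). The second probe set gave log2 differences of 0.12 (SE 0.0589) in HMACT and -0.0022 (SE 0.0618) in LMACT.

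**Figure D2:**
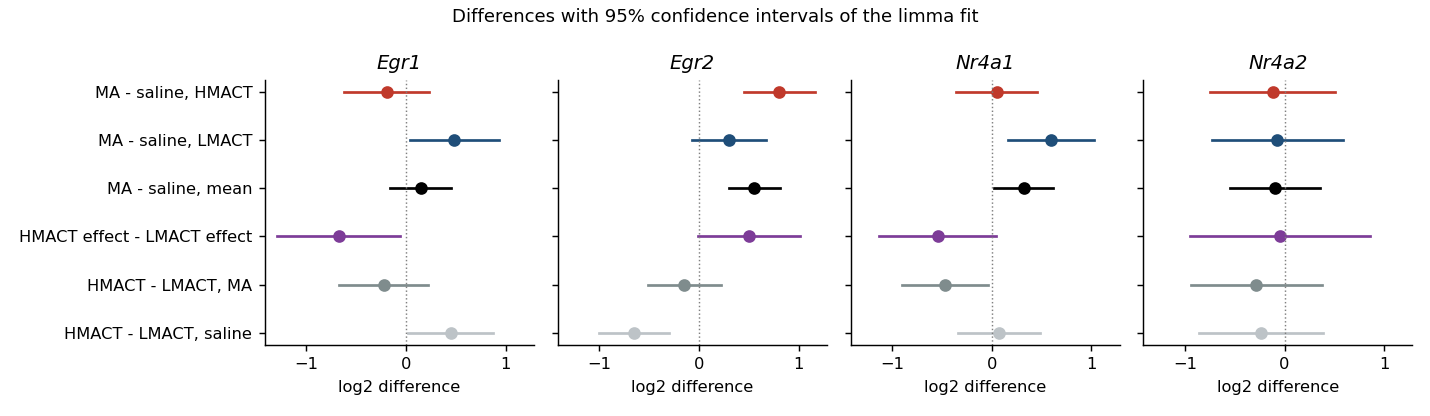
Log2 differences (horizontal axis) of each gene in 6 comparisons, as points with the 95% confidence intervals of the limma fit. For methamphetamine minus saline, the Egr2 interval lies above 0 in HMACT and spans 0 in LMACT. The Nr4a1 and Egr1 intervals lie above 0 in LMACT and span 0 in HMACT. All Nr4a2 intervals span 0.

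The next comparison asked whether the lines differed in their response. For Egr2 the response in HMACT minus that in LMACT was 0.51 on the log2 scale (SE 0.245, 95% interval -0.0059 to 1.02), with an unadjusted p of 0.0524 and an adjusted p of 0.860 in limma. The same difference was -0.67 (SE 0.296, unadjusted p = 0.0341 in limma) for Egr1 and -0.54 (SE 0.283, unadjusted p = 0.0694 in limma) for Nr4a1. The adjusted p was 0.860 for both, and Nr4a2 had a difference of -0.05 (SE 0.433). No gene on the array passed this comparison (0% in limma), with 51 genes higher and 165 lower at an unadjusted p under 0.05. An effect seen in 1 line and not in the other was thus not shown to differ between lines for any member. Whether the response of Egr2 differs from that of another member was not tested.

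The lines were also compared with each other within each injection. After saline, Egr2 was lower in HMACT, at 8.91 ± 0.43 (SD, n = 6), than in LMACT, at 9.56 ± 0.21 (SD, n = 6). The line difference was -0.65 (SE 0.169), with an unadjusted p of 0.00104 and an adjusted p of 0.320 in limma, and 6 of 6 HMACT pools lay below the LMACT mean. The groups overlapped, since LMACT saline replicate 5, at 9.16, lay below the highest HMACT pools. No gene passed the adjusted threshold after saline (0% in limma), while 558 were higher and 698 lower in HMACT at an unadjusted p under 0.05. After methamphetamine the Egr2 difference was -0.14 (SE 0.177; adjusted p = 1 in limma). The summed log2 level of oligodendrocyte markers (6 of 7 on the array, Cnp at the floor on every array) was also lower on average in HMACT. It ran from 12.1 to 13.2 in HMACT methamphetamine pools against 13.2 to 13.6 in LMACT methamphetamine pools. After saline it ran from 12.5 to 13.1 in HMACT pools against 12.9 to 13.5 in LMACT pools. Single markers did not all follow the sum. After saline the log2 difference, HMACT minus LMACT, was 0.016 (SE 0.217) for Mbp and 0.36 (SE 0.517) for Mag. After methamphetamine these differences were -0.34 (SE 0.228) and -0.90 (SE 0.542), and those of the other markers are not given here. The part of oligodendrocyte RNA in the line differences of the members was not tested.

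Egr1 went the other way after saline, at 10.14 ± 0.29 (SD, n = 6) in HMACT and 9.69 ± 0.44 (SD, n = 6) in LMACT. The log2 difference was 0.45 (SE 0.204), with an unadjusted p of 0.0397 and an adjusted p of 0.322 in limma. After methamphetamine it was -0.22 (SE 0.214; adjusted p = 1 in limma). Nr4a1 differed between the lines by -0.47 after methamphetamine (SE 0.204, unadjusted p = 0.0330 and adjusted p = 1 in limma), where 0% of genes passed in limma and 120 were higher and 234 lower at an unadjusted p under 0.05. After saline it differed by 0.07 (SE 0.195). Nr4a2 differed by -0.28 (SE 0.313) after methamphetamine and -0.24 (SE 0.299) after saline. Over both injections the line difference was -0.40 (SE 0.122, adjusted p = 0.225 in limma) for Egr2, against 0.194% of genes past the threshold, and 0.11 (SE 0.148), -0.20 (SE 0.141) and -0.26 (SE 0.217) for Egr1, Nr4a1 and Nr4a2.

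For each gene the 4 groups can be put in order by their means. Egr2 was highest in LMACT methamphetamine pools at 9.86, followed by HMACT methamphetamine at 9.72, LMACT saline at 9.56 and HMACT saline at 8.91. The neighbours in the upper part of that order overlapped widely, and the widest step was the last. Nr4a1 was highest in LMACT methamphetamine pools at 8.41, and the other means, 7.94 in HMACT methamphetamine, 7.89 in HMACT saline and 7.81 in LMACT saline, lay closer together than 1 SD of any of these groups. Egr1 ran through 10.18 in LMACT methamphetamine, 10.14 in HMACT saline, 9.95 in HMACT methamphetamine and 9.69 in LMACT saline, with each neighbouring pair overlapping. Nr4a2 ran through 5.14 in LMACT saline, 5.07 in LMACT methamphetamine, 4.91 in HMACT saline and 4.79 in HMACT methamphetamine, again with overlap throughout.

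Age differed between the lines and within HMACT, so each gene was also set against it. Within groups, Egr1 was higher by 0.20 log2 units per 30 days of mean age (SE 0.0645, unadjusted p = 0.00541 in limma) and Egr2 was lower by that measure, with a slope of -0.13 (SE 0.0592, unadjusted p = 0.0456 in limma). Both had an adjusted p of 0.660, and no gene on the array passed. In HMACT methamphetamine pools over 100 days old Egr1 averaged 10.22, against 9.69 in those under 100 days, and in HMACT saline pools 10.34, against 9.95. With mean age in the model the line difference of Egr2 after saline was -0.49 and that of Egr1 was 0.20. Line and age are partly tied in these pools, and their shares in a line difference cannot be told apart.

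The within-group slope of Nr4a1 was 0.10 per 30 days (SE 0.0726) and that of Nr4a2 was -0.016 (SE 0.117, unadjusted p = 0.896 in limma). Whether age bears differently on Nr4a2 after methamphetamine and after saline was not tested, and the values are given by group. In HMACT methamphetamine pools it averaged 4.23 over 100 days (n = 3) and 5.35 under 100 days (n = 3), without overlap. In HMACT saline pools it averaged 5.24 over 100 days (n = 3) and 4.57 under 100 days (n = 3), with overlap. Groups of 3 pools can separate by chance, and the share of all genes that separate by age was not computed. In the pools under 100 days alone, an alternative chosen after seeing the data, the HMACT methamphetamine difference of Nr4a2 was 0.78, with an adjusted p of 0.978 in limma.

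**Figure D3:**
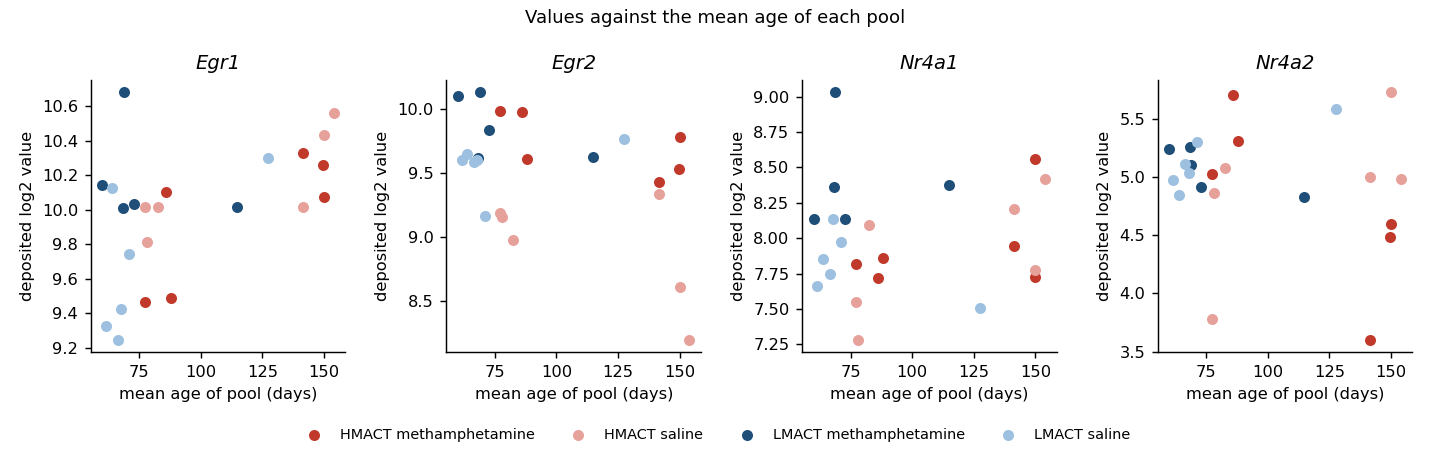
Deposited log2 value of each gene (vertical axis) against the mean age of each pool in days (horizontal axis), coloured by group. Nr4a2 in HMACT methamphetamine pools had means of 4.23 over 100 days (n = 3) and 5.35 under 100 days (n = 3). Its within-group slope over all groups was -0.016 log2 units per 30 days.

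Genes that act with these factors were read from lists of pathway members. In these lists a gene counts as above the floor if it was so on at least 1 array. Of the relatives and partners, 5 of 8 were on the array and above the floor; Egr3, Egr4 and Nr4a3 are not analysed here. None passed in either direction after methamphetamine over both lines. Rxrb, a retinoid X receptor that can pair with Nr4a receptors, had a log2 difference of 0.14 (SE 0.241), and Nab2, a corepressor of Egr proteins that is itself induced by them, had -0.24 (SE 0.311). The list median was -0.02, beside -0.0030 over the 6162 genes above the floor on at least 1 array.

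Of the upstream kinases and factors, 17 of 27 were on the array and 13 above the floor on at least 1 array, and none passed. Among these 13, Creb1 and Camk2a were at the floor on 22 arrays and Camk4 on 21, so their differences say little. The median log2 difference of the 13 was 0.0034, which is the value of Camk4. Crebbp, a coactivator of CREB, had 0.33 (SE 0.219), and Mef2d, a neuronal activity-dependent factor, had 0.22 (SE 0.138). Of the described targets, 11 of 15 were on the array and 8 above the floor, none passed, and the median was 0.02. Cdk5r1, an Egr1 target that activates Cdk5, was at the floor on 21 arrays, with a difference of 0.05 (SE 0.0264). Ret, a receptor kinase controlled by Nr4a2 in dopamine neurons, was at the floor on 22 arrays, with a difference of 0.03 (SE 0.0194). Of the dopamine signalling genes, 7 of 14 were on the array and 5 above the floor, and none passed. All 5 differences in the mean of both lines were positive, with a median of 0.06, beside 48.2% positive among 6162 genes. In HMACT alone and in LMACT alone, 3 were positive and 2 negative. Drd2, the dopamine D2 receptor gene, had 0.20 (SE 0.210), and Penk, the proenkephalin gene, had 0.06 (SE 0.0952).

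Of the other early transcription factors, 17 of 20 were on the array and 15 above the floor; none passed the adjusted threshold, 6 were higher at an unadjusted p under 0.05 and none lower, against 0.885% of all genes higher. Their median was 0.29, with Fosl1 and Fosl2 at the floor on 22 arrays and Ier3 on 18. Atf3, a stress-inducible factor of the ATF family, had a log2 difference of 0.95 (SE 0.185, adjusted p = 0.118 in limma), and Klf4, a Kruppel-like zinc finger factor, had 0.79 (SE 0.165, adjusted p = 0.154 in limma). Of the early effector genes, 22 of 27 were on the array. All 22 were above the floor on at least 1 array, though Ptgs2 and Pim1 were at the floor on 21. Only 1 passed: Btg2 rose by 0.88 (SE 0.0929, adjusted p = 8.1e-05 in limma). Dusp1, a phosphatase that switches off MAP kinases, had 0.80 (SE 0.207, adjusted p = 0.894 in limma). The effector median was 0.09, and 7 of its members were higher at an unadjusted p under 0.05.

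In HMACT alone, 1 effector gene (Btg2) and no early transcription factor passed, and 4 of each list were higher at an unadjusted p under 0.05, against 0.497% of all genes. The Btg2 call in HMACT was lost with a block on replicate number, within the lot of 15 arrays alone and in a fit of only the groups compared, each with 0 genes past the threshold. Same-numbered pools of a line share a chip lot in the labels (apart from the LMACT pair that holds the array with the differing lot number) and have similar mean ages. In LMACT alone none passed, and 6 effector genes and 4 transcription factors were higher at that level, against 2.27% of all genes. The lists were written with results of these samples known, so their counts are not independent evidence of direction.

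**Figure D4:**
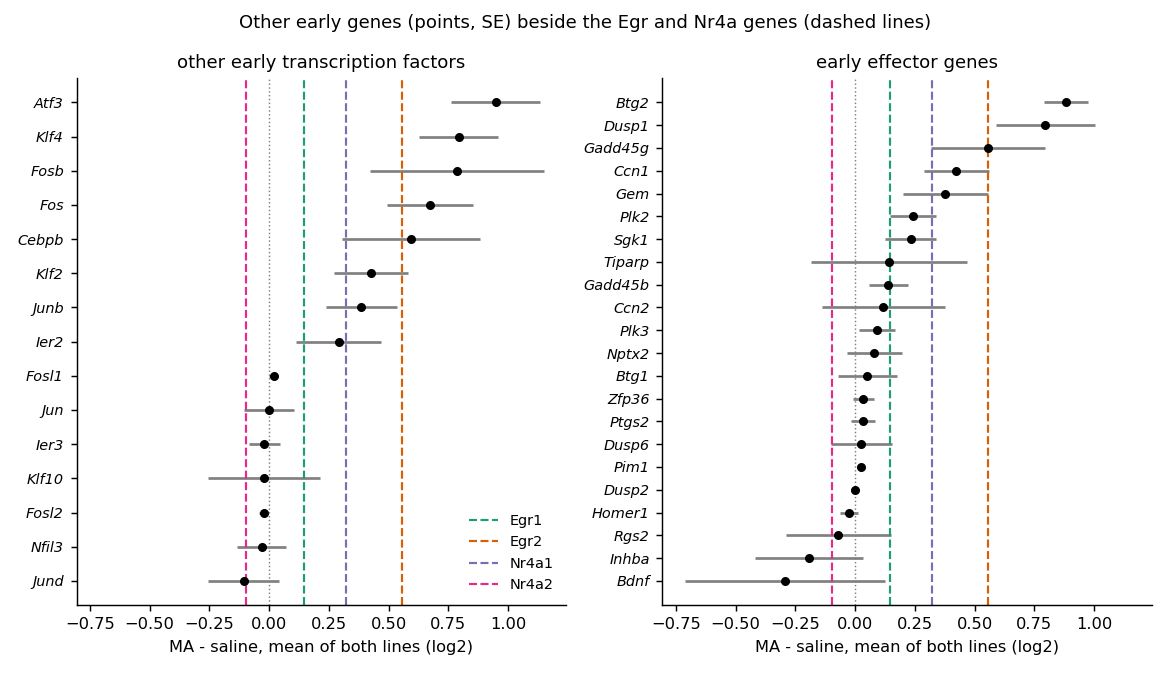
Log2 difference between methamphetamine and saline pools, mean of both lines, for other early transcription factors (left) and early effector genes (right), as points with SE, beside dashed lines for the 4 Egr and Nr4a genes. Egr2, at 0.56, lies below Atf3 at 0.95 and Btg2 at 0.88, and Nr4a1, at 0.32, lies below Egr2.

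The genes most like each member over the 23 arrays were found by Pearson r among 5308 genes above the floor on most arrays. Egr2 was most like Fos, an AP-1 subunit and early gene, with r = 0.854, then Klf4 with r = 0.850 and Tnnt1 (slow skeletal troponin T) with r = 0.805. After the group means were removed these values were 0.673, 0.631 and 0.710, where they ranked only 29th, 73rd and 15th. Part of the likeness to Fos and Klf4 thus lay in differences between the groups, and other genes were closer to Egr2 within groups. Without the 4 arrays that stand apart, over 19 arrays, the r values were 0.793, 0.681 and 0.663, ranking 1st, 12th and 19th. HMACT saline replicate 3 was the lowest array for Fos too, at 7.53.

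Egr1 was most like Prpf19, a splicing and ubiquitin ligase factor, with r = 0.941, Rrp1, a ribosomal RNA processing protein, with r = 0.930, and Pick1, a synaptic scaffold protein, with r = 0.877. Within groups the Prpf19 value was 0.934, close to the value over all arrays. Nr4a1 was most like Med24, a Mediator subunit, with r = 0.849, Rab34 with r = 0.830 and Cpsf4, a polyadenylation factor, with r = 0.827. Within groups these values were 0.825, 0.747 and 0.777, where they ranked only 125th, 504th and 331st, so other genes were closer to Nr4a1 once group means were removed. Nr4a2 was most like the zinc finger gene Zfp638 with r = 0.705 (0.683 within groups), the calcium channel subunit gene Cacna2d1 with r = 0.657 (0.636) and the choline kinase gene Chka with r = 0.637 (0.608). None of the 3 genes nearest to Egr1, Nr4a1 or Nr4a2 belongs to the early gene lists. These arrays share residual variance along 1 axis and the r values are descriptions.

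**Figure D5:**
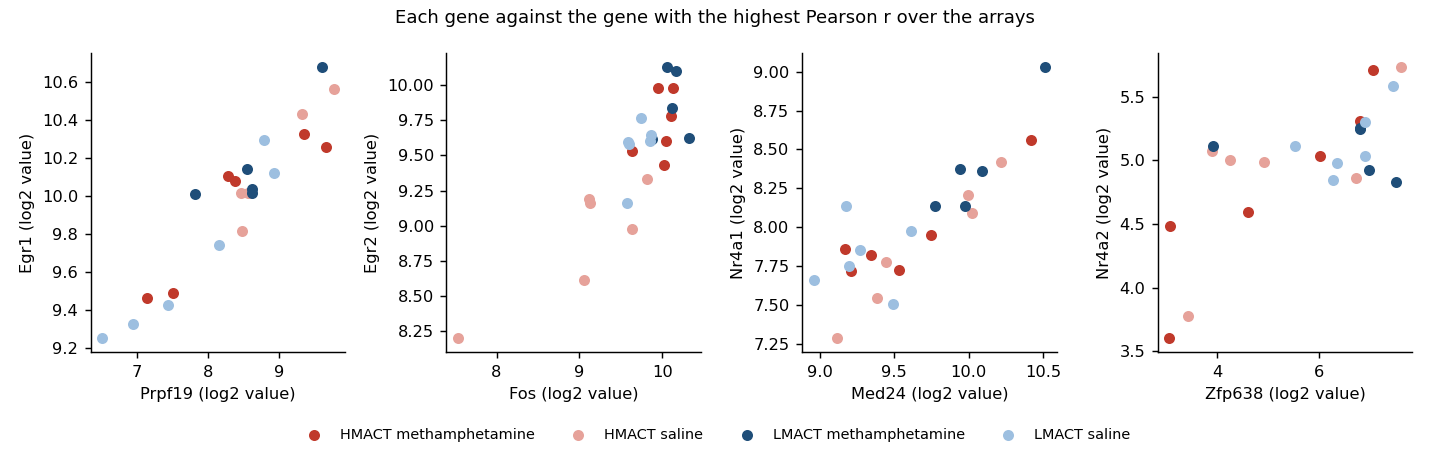
Deposited log2 value of each member (vertical axis) against the gene with the highest Pearson r (horizontal axis) over 23 arrays, coloured by group. Egr2 and Fos are jointly lowest in HMACT saline replicate 3, and Egr1 follows Prpf19 in all groups.

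Among themselves the members were only weakly alike over the 23 arrays. The highest r was 0.431, between Egr1 and Nr4a1, and it was 0.0674 over the 19 arrays that did not stand apart. Egr1 and Egr2 had r = -0.205, and the other 4 pairs lay between -0.0759 and 0.0875. Within groups Egr2 and Nr4a1, the members with the larger differences after methamphetamine, had r = -0.336. LMACT methamphetamine replicate 4 nevertheless had the highest value of both, 10.1 for Egr2 and 9.03 for Nr4a1.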

How the data were processed

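The authors had summarised each probe set of each array to 1 value and normalized the log2 values between arrays before they were deposited, as the nearly equal sorted values of the arrays show; their method and background correction are not stated in any source used here. The log2 scale was read from the range. Per the submitters' processing notes, R 2.7.1 was used, in a role they do not give. Groups, ages and chip lots come from the labels. The lowest value made up 33.0% of all values, and signal over that floor and the number of arrays, not read depth, limit precision. The array has 12488 probe sets, including 66 controls; 10833 map to a single gene and 396 to several. Where a gene had more than 1 probe set (2073 genes), the brightest by mean stood for it, which left 8251 genes.

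Comparisons used limma 3.58.1 in R 4.3.3 (lmFit, contrasts.fit and eBayes), with 4 group means over all 23 arrays, no covariates, two-sided tests and Benjamini-Hochberg adjustment over 8251 genes at 0.05; n in the text counts pools. The steps were tested on simulated data. No arrays held identical values, the smallest mean absolute difference between 2 arrays being 0.0736.

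The labels give the groups common replicate numbers. Same-numbered pools of a line had residual correlations of -0.618 to 0.876, with 8 of 11 over 0.1 and 5 of 11 best with their own number. The labels do not say whether these pools are pairs. The main fit left the numbers out, and a block on replicate number was run as an alternative. Members and lists were chosen with earlier results of these data known. Named were all member probe sets, for each member the 3 genes with the highest Pearson r, from each pathway list the members past the threshold and the 2 with the smallest p, and Btg2 and Hspa1b. Fos is also described for its low value on 1 array, Mbp and Mag as oligodendrocyte markers, and some listed genes for being at the floor on most arrays. Arrays that stand apart had an axis score over the median plus 3.5 scaled median absolute deviations. Alternatives covered normalization, floors and filters, probe set choice, variance modelling, array weights, chip lot, age, a replicate block and single arrays left out; the pools under 100 days alone were added after seeing the data. Promoter sequences are RefSeq's (GRCm38.p6), and 3 of the 4 members are shown.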

Additional observations from a re-analysis of the deposited data

Results flagged for a closer look

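Within groups of 5 or 6 arrays, 12 of 24 combinations of probe set and group held a pool whose gap to its nearest neighbour was large against the group's range by Dixon's test, which chance alone does in about 1 in 20 groups. Most of these lay in the probe sets with little signal, where most pools share nearly the same value and the rate of 1 in 20 does not apply. For the second Egr1 probe set, near the floor throughout, they were 2.27 in HMACT methamphetamine replicate 4, 2.28 in HMACT saline replicate 4, 2.59 in LMACT methamphetamine replicate 2 and 2.29 in LMACT saline replicate 2. For the second Nr4a2 probe set they were 3.35 in HMACT methamphetamine replicate 5, 2.69 in HMACT saline replicate 4, 2.91 in LMACT methamphetamine replicate 4 and 2.92 in LMACT saline replicate 4.

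The other 4 lay in probe sets that carry the results. LMACT methamphetamine replicate 4 was the highest of its group for Egr1, at 10.7 with the next at 10.1, and for Nr4a1, at 9.03 with the next at 8.37. HMACT methamphetamine replicate 3 was the highest of its group for Nr4a1, at 8.56 with the next at 7.95. Both of these arrays are among the 4 that stand apart. LMACT saline replicate 5 was the lowest of its group for Egr2, at 9.16 with the next at 9.58, and it is not one of the 4.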

How the results depend on the processing

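No member passed the adjusted threshold of limma under any alternative except Nr4a1 in the mean line difference, which was -0.42 (SE 0.0858, adjusted p = 0.0363) with the array axis as a covariate. Of the members' differences under alternatives, 1071 kept their direction and their side of the threshold and 36 reversed in sign, none of them past the threshold. The Egr2 difference after methamphetamine was positive in every setting run: 0.48 to 0.60 with single arrays left out and 0.46 to 0.58 otherwise for the mean of both lines, and 0.67 to 0.89 and 0.60 to 0.86 in HMACT. The cause of the reversals below was not tested.

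With array weights, the Nr4a2 difference after methamphetamine was 0.11 for the mean and 0.34 in HMACT, its interaction 0.47 and its line difference after methamphetamine 0.016; Nr4a1 was -0.035 in HMACT and -0.0058 between lines after saline. Without the arrays that stand apart, Nr4a2 was 0.0037 in HMACT with an interaction of 0.084, and Nr4a1 was -0.11 between lines after saline. With the axis as a covariate, Nr4a2 was 0.022 in LMACT, Egr1 -0.030 in the mean line difference and Nr4a1 -0.29 between lines after saline. With mean age as a covariate, Egr1 was -0.14 in the mean line difference, Egr2 0.018 between lines after methamphetamine and Nr4a1 -0.056 between lines after saline. In pools under 100 days alone, Nr4a2 was 0.43 for the mean, 0.78 in HMACT, 0.078 in LMACT, 0.70 in the interaction and 0.22 between lines after methamphetamine, Egr1 was -0.077 in the mean line difference and Nr4a1 -0.23 between lines after saline. The mean of all probe sets gave an Nr4a2 interaction of 0.035, and the lot of 15 arrays alone an Egr1 line difference after methamphetamine of 0.13.

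With single arrays left out, the reversing results ran from -0.21 to 0.024 for the mean Nr4a2 difference after methamphetamine, -0.34 to 0.12 for Nr4a2 in HMACT, -0.13 to 0.017 for Nr4a2 in LMACT, -0.27 to 0.19 for its interaction, -0.073 to 0.16 for Nr4a1 in HMACT and -0.033 to 0.19 for Nr4a1 between lines after saline. With the replicate block, the mean Egr2 difference was 0.56 and the HMACT one 0.81, with adjusted p of 1 and 0.755 in limma; 5 of 11 pools correlated best with their own number. Fits of only the groups compared were not run for the mean comparisons and the interaction, which use all groups. Over all genes the count past the threshold ranged from 0 to 7 for the mean effect of methamphetamine (7 with the array axis as a covariate), 0 to 3 in HMACT (0 with the replicate block, in the lot of 15 arrays alone and in a fit of only the groups compared, 3 without the arrays that stand apart), 0 to 31 in LMACT, 0 to 136 between lines after methamphetamine, 0 to 236 after saline and 1 to 830 for the mean line difference (1 with mean age as a covariate, in pools under 100 days alone and in the lot of 15 arrays alone, 15 with the replicate block), the highest of these last 4 with array weights; the interaction had 0 throughout.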
